A study of Mus musculus with 14 samples.

Results

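The Fringe genes Lfng, Mfng and Rfng and the Notch O-glycosyltransferase genes Pofut1 and Poglut1 were described in sorted supporting cells (SCs) of the mouse cochlea. These 5 genes were chosen by name, and all 5 were found among the 35976 gene symbols counted. Cochlear explants came from Lfng-EGFP mice aged P0 or P6, with P0 taken to be P0 to P1, and were cultured for 24 hours with 2 μM compound E or with an equal volume of DMSO. Compound E inhibits γ-secretase, the protease that frees the intracellular domain of Notch. EGFP+ cells were sorted and their polyadenylated RNA was sequenced, in 4 compound E and 4 DMSO libraries at P0 and 3 of each at P6. All groups, controls included, carry the reporter transgene of the GENSAT line B6;FVB-Tg(Lfng-EGFP)HM340Gsat/Mmucd, kept on a C57BL/6 background, and cochleae were pooled for sorting. In this transgene a bacterial artificial chromosome with the regulatory sequence of Lfng drives EGFP. The cells were therefore gated on a reporter of Lfng itself, and a level of Lfng in EGFP+ cells holds only for cells that passed that gate. Per-gene counts do not separate reads of the endogenous gene from reads of any part of Lfng that the transgene transcribes.

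Notch receptors carry sugars on the epidermal growth factor-like repeats of their extracellular part. Pofut1 adds O-fucose to these repeats and Poglut1 adds O-glucose, both in the endoplasmic reticulum, and the 3 Fringe enzymes lengthen the O-fucose in the Golgi by adding N-acetylglucosamine. Sugars added by Fringe change how a receptor responds to Delta-like and to Jagged ligands, and in the cochlea Lfng is a known marker of SCs. On the GRCm38 build, GENCODE M21 places Lfng (ENSMUSG00000029570.5) on the plus strand at chr5:140607320-140615545. Mfng (ENSMUSG00000018169.12) lies on the minus strand at chr15:78755882-78773475 and Rfng (ENSMUSG00000025158.7) on the minus strand at chr11:120780746-120784207. Pofut1 (ENSMUSG00000046020.13) lies on the plus strand at chr2:153241533-153270247 and Poglut1 (ENSMUSG00000034064.14) on the minus strand at chr16:38525137-38550258. All 5 are protein-coding, and none overlaps another annotated gene.

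The stretch upstream of Lfng is shown because the sorting reporter uses Lfng regulatory sequence and Lfng RNA was compared between treatments. Transcription itself was not measured. RefSeq promoter windows, from 250 bases before to 50 bases after the start of a transcript, were given for 4 of the 5 genes, all but Mfng. The windows were searched on both strands for TGGGAA, the core recognised by RBPJ (the DNA-binding partner of the Notch intracellular domain), and for its longer form GTGGGAA. The bases of the Lfng window that precede the GENCODE gene are printed 5′ to 3′ on the plus strand of GRCm38, chr5:140607091-140607319, with matches to either form on either strand in capitals.
Lfng: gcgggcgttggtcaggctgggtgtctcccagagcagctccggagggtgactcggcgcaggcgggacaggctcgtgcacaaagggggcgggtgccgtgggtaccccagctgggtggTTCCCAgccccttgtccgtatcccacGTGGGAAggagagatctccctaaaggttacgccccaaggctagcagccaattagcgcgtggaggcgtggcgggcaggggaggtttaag
The Lfng window held 2 matches to TGGGAA, which begin 135 and 108 bases before the RefSeq start, and the second lies within the single match to GTGGGAA. Among all 32851 promoter windows, 25.6% held TGGGAA and 6.38% held GTGGGAA. The Poglut1 window held 1 match to TGGGAA and the Rfng and Pofut1 windows held 0, and GTGGGAA was found in none of these other 3 windows. CAGCTG, an E-box, occurred 2 times in the Lfng window and in 0 of the other 3 windows, against 16.3% of all windows. CACNAG, an N-box, occurred 1 time each in the Lfng and Rfng windows, against 42.5% of all windows. Among the Notch target genes listed for comparison, windows were given for Hes5, Hey2 and Nrarp, of which Hes5 and Hey2 each held 2 matches to GTGGGAA and Nrarp held 0. A match here is a match of letters, and binding was not measured.

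The libraries held 19415066 to 44430063 counts on genes. RPM values are counts divided by the library's total. The lowest count of any of the 5 genes was 192 reads. The libraries were amplified without molecular identifiers, so read counts do not give the number of molecules sampled, and precision is taken from the spread between libraries. SC markers (Sox2, Sox9, Sox10, Prox1, Fgfr3, Cdkn1b, S100a1 and Jag1) were present in every library. They summed to 6042 to 9240 RPM in P0 DMSO and 5539 to 6513 RPM in P0 compound E. At P6 they summed to 2670 to 5391 RPM in DMSO and 2285 to 4125 RPM with compound E. The SC sum was lower with compound E in every pair at both ages, though the ranges of the treatments overlapped. Hair cell markers (8 genes, among them Atoh1, Pou4f3 and Myo7a) summed to 824 to 1965 RPM at P0 and 572 to 1160 RPM at P6. Mesenchymal markers (6 genes) summed to 931 to 1136 RPM in P0 DMSO, 1207 to 1350 RPM in P0 compound E and 897 to 4060 RPM at P6. Glial markers (5 genes) summed to 185 to 230 RPM in P0 DMSO, 257 to 265 RPM in P0 compound E and 158 to 270 RPM at P6. At P0 both sums were thus higher with compound E in every pair and did not overlap between treatments. Macrophage, endothelial and erythroid markers (6, 6 and 5 genes) summed to at most 75.0, 46.2 and 8.97 RPM in any library. No marker was at 0 in all libraries of a group. Of the mesenchymal, glial, macrophage, endothelial and erythroid markers, none was called with compound E at P0 by edgeR or DESeq2. An unadjusted p under 0.05 was found for 1 mesenchymal and 1 glial gene, against 13.4% of all tested genes.

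Lfng was the most abundant of the 5 genes in every group. Per kilobase of exon, its mean level in the P0 DMSO libraries was 1114 ± 448 RPM per kb (SD, n = 4), which ranked 9 among the 14610 tested genes with a known length. At P6 its mean level in DMSO was 805 ± 291 RPM per kb (SD, n = 3), rank 20 among 14268 genes. Poglut1 followed in DMSO at both ages with 17.7 RPM per kb at P0 and 18.5 at P6, so that the mean of Lfng stood 63.1 times above that of the next gene at P0 and 43.6 times at P6. In P0 DMSO the order went on with Mfng at 14.1 and Rfng at 10.9 RPM per kb, and the ranges of neighbours in the order Poglut1, Mfng and Rfng overlapped. Pofut1 was last at 4.57 RPM per kb, below the range of Rfng. In P6 DMSO Rfng came after Poglut1 at 14.3 RPM per kb, and Pofut1 (4.64) and Mfng (4.18) overlapped in last place. In compound E libraries at P0, Mfng stood second at 26.8 RPM per kb with a range that overlapped that of Poglut1 at 20.3. The order within each group was the same when the longest transcript was taken as the length in place of all exons.

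**Figure D1:**
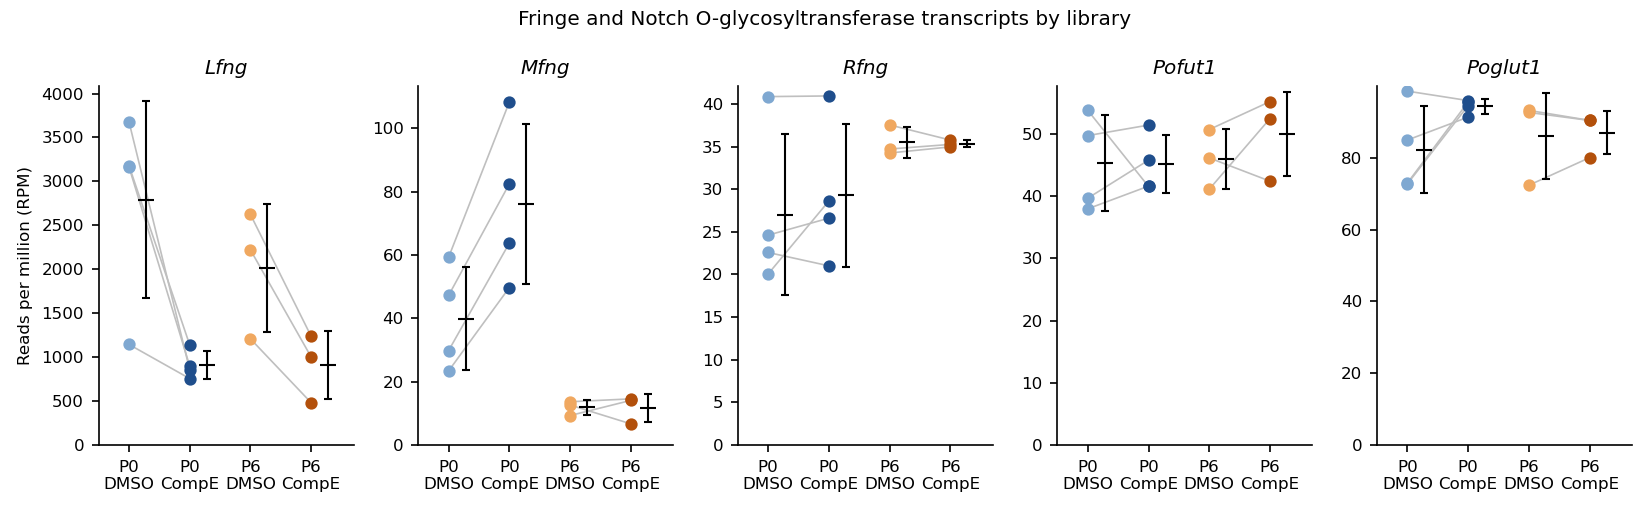
RPM (linear axis from 0, a scale of its own for each gene) of the 5 genes in each library; points are libraries, grey lines join the 2 libraries of a replicate number (DMSO and compound E, CompE), and black bars show the mean and SD. Lfng was lower with compound E in each of the 7 pairs, Mfng was higher in each of the 4 pairs at P0, and Rfng, Pofut1 and Poglut1 show no common direction.

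Lfng, the most abundant Fringe transcript in these libraries, was taken first in the comparison of compound E with DMSO. At P0 it was counted at 1144, 3164, 3178 and 3677 RPM in DMSO replicates 1 to 4 and at 756, 898, 1139 and 856 RPM in compound E replicates 1 to 4. DMSO replicate 1 was the low library of its group and exceeded the highest compound E library, replicate 3, by only a few RPM, so the groups did not overlap on this scale. The mean was 2791 ± 1123 RPM in DMSO and 912 ± 162 RPM with compound E (SD, n = 4 each). An exact two-sided permutation test gave p = 0.0286, the smallest p that 4 against 4 libraries allow, in a family of 10 such tests over 5 genes and 2 ages. When libraries were scaled by TMM, or by the total without the 50 most abundant genes, DMSO replicate 1 fell below compound E replicate 3 and the exact permutation p became 0.0571. Across the P0 table, 9.88% of tested genes had groups that did not overlap in RPM.

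At P0 the fitted log2 fold change of Lfng was -1.67 (SE 0.34, edgeR quasi-likelihood test, adjusted p = 0.0241). A call required a Benjamini-Hochberg adjusted p no higher than 0.01 together with a 2-fold or larger change, so Lfng was not called by this fit, in which treatment is the only term. With the replicate number as a block it was called, at -1.54 (SE 0.23, edgeR adjusted p = 0.00537), and DESeq2 also called it at -1.67 (adjusted p = 2.38e-05). By their labels, the 2 libraries of a replicate number share a batch, and at P0 replicates 3 and 4 are of the same batch. Within the 4 pairs the log2 ratios of Lfng were -0.57, -1.87, -1.54 and -2.14, so that pair 1, with the low DMSO library, showed the smallest decrease. Leaving out DMSO replicate 1 moved the estimate for Lfng to -1.94 (edgeR adjusted p = 0.000635), and the gene was called. In DMSO replicate 1 the SC markers also summed to less, 6042 RPM against 8158 to 9240 RPM in the other 3 DMSO libraries, and their part in the low Lfng level was not tested. In bulk RNA of sorted cells, fewer Lfng-expressing cells and less Lfng RNA per cell cannot be told apart. In all 4 P0 pairs Lfng and the summed SC markers were lower, and the summed mesenchymal and glial markers higher, with compound E. The largest RPM difference in the SC sum was in Jag1 (a mean of 2197 RPM in DMSO and 879 RPM with compound E). Of the 8 SC markers, 6 had negative and 2 positive log2 fold changes. The largest RPM differences in the mesenchymal and glial sums were in Lum (688 to 845 RPM in DMSO, 941 to 1139 RPM with compound E) and S100b (38.4 to 83.3 and 94.8 to 108 RPM). Neither Lum nor S100b was called, and 5 of the 6 mesenchymal genes had negative log2 fold changes. The part of these marker sums in the Lfng difference was not tested.

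Of the 5 genes, 0 were called at P0 with treatment as the only term, where edgeR called 1.22% of all 15937 tested genes. Lfng and Mfng passed an unadjusted p of 0.05, as did 13.4% of all tested genes, and DESeq2 called Lfng alone, against 1.71% of the genes it tested. With the replicate block 1 of 5 was called, Lfng, against 2.2% of all tested genes.

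At P6 Lfng was counted at 2624, 2221 and 1209 RPM in DMSO replicates 1 to 3 and at 1238, 1002 and 482 RPM in compound E replicates 1 to 3. Replicate 3 was the lowest library of each treatment, and DMSO replicate 3 lay below compound E replicate 1, so the groups overlapped although every pair moved down. The RPM ranges of the 2 treatments overlapped for all 5 genes at P6, where they were apart for 7.19% of all tested genes. The mean was 2018 ± 729 RPM in DMSO and 907 ± 387 RPM with compound E (SD, n = 3 each; exact two-sided permutation p = 0.2, where 3 against 3 libraries cannot go below 0.1). The log2 ratios within pairs were -1.08, -1.14 and -1.34. The fitted log2 fold change of -1.14 (SE 0.43) was not called, with an edgeR adjusted p that rounds to 1.00. With the replicate block the estimate was -1.17 (SE 0.08, 95% interval -1.38 to -0.96, edgeR adjusted p = 0.103), and Lfng was not called either. Replicate 3 of both treatments also had the highest summed mesenchymal markers, 4060 RPM in DMSO and 3361 RPM with compound E, and the lowest summed SC markers of their groups, 2670 and 2285 RPM. Their part in the Lfng level was not tested.

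At P6 0 of the 5 genes were called, and edgeR called 0.0% of all 15322 tested genes, of which 289 (1.89%) had an unadjusted p under 0.05. Lfng was the only one of the 5 genes under that unadjusted limit, and DESeq2 called 13 genes (0.0548% of those it tested), none of the 5. The Lfng responses at the 2 ages differed by 0.54 on the log2 scale (P6 minus P0, SE 0.57, 95% interval -0.69 to 1.77, edgeR adjusted p rounds to 1.00). A difference in response of Lfng between ages was thus not detected, and the interval leaves room for a response at P6 that is weaker or stronger.

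**Figure D2:**
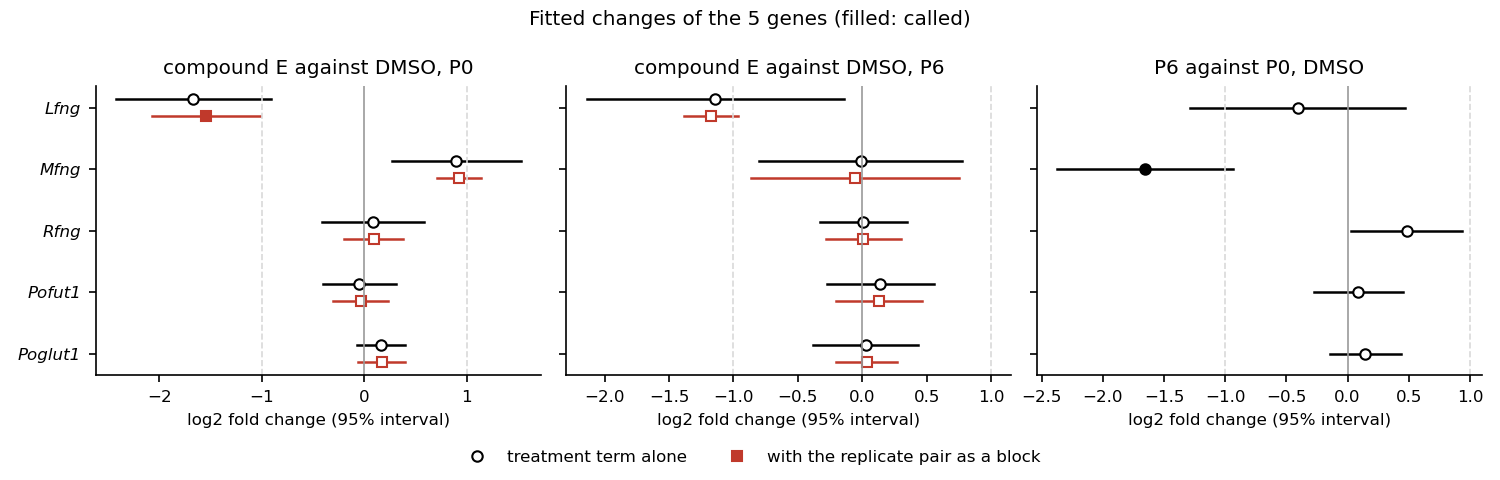
Fitted log2 fold changes (points) with 95% intervals (lines) for the 5 genes, from edgeR with treatment as the only term (black circles) and with the replicate pair as a block (red squares); filled symbols mark calls and dashed lines mark a 2-fold change. Lfng is called at P0 with the block at -1.54, Mfng is called lower at P6 than at P0 in DMSO at -1.66, and the other symbols are open.

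Mfng (Manic fringe) showed the opposite direction at P0. It was counted at 59.3, 23.4, 29.8 and 47.2 RPM in DMSO replicates 1 to 4 and at 108, 49.7, 63.8 and 82.4 RPM in compound E replicates 1 to 4. Each compound E library stood above the DMSO library of its own number, while DMSO replicate 1 lay above compound E replicate 2, so the groups overlapped. The log2 ratios within pairs, matched by replicate number, were 0.90, 1.04, 1.04 and 0.76. Replicates 3 and 4 share a batch, so their pairing and the spread of these ratios rest on the numbering. With treatment as the only term, the log2 fold change of Mfng was 0.90 (SE 0.28, edgeR adjusted p = 0.146), which was not called. With the replicate block it was 0.92 (SE 0.09, 95% interval 0.71 to 1.14, edgeR adjusted p = 0.000919). This passed the adjusted p but not the 2-fold limit, so Mfng was again not called. A block for the batch needs no pairing of replicates 3 and 4. With it the log2 fold change was 0.91 (SE 0.15, edgeR adjusted p = 0.00666), again not called. The mean was 39.9 ± 16.4 RPM in DMSO and 76.0 ± 25.3 RPM with compound E (SD, n = 4 each; exact two-sided permutation p = 0.0571).

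At P6 Mfng was much lower in both treatments. It was counted at 9.30, 12.6 and 13.7 RPM in DMSO and at 14.1, 6.69 and 14.6 RPM with compound E. The groups overlapped, and the pairs moved in both directions, with log2 ratios of 0.61, -0.90 and 0.08. The fitted log2 fold change of Mfng was -0.01 (SE 0.34, 95% interval -0.80 to 0.78, edgeR adjusted p rounds to 1.00). The Mfng responses at the 2 ages differed by -0.90 (P6 minus P0, SE 0.45, 95% interval -1.87 to 0.07, edgeR adjusted p rounds to 1.00), and with the replicate block by -0.97 (SE 0.30, 95% interval -1.64 to -0.30, edgeR adjusted p = 0.286). None of the 5 genes was called for a difference of responses, where edgeR called 0.0% of 17090 tested genes and 811 had an unadjusted p under 0.05. With the replicate block edgeR called 16 genes and DESeq2 called 34 for this difference, again none of the 5.

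Rfng (Radical fringe) was counted at 40.9, 22.6, 20.1 and 24.6 RPM in DMSO and at 40.9, 21.0, 28.6 and 26.6 RPM with compound E at P0. The 2 libraries of replicate 1 held the highest values of their groups, and the treatments overlapped. Replicate 1 also held the highest Mfng level of each P0 group and the lowest Lfng level of each. The log2 fold change of Rfng at P0 was 0.08 (SE 0.22, 95% interval -0.41 to 0.58). At P6 all 6 libraries lay between 34.2 and 37.5 RPM, and the log2 fold change was 0.01 (SE 0.14, 95% interval -0.33 to 0.34).

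The initiating enzymes did not pass the test at either age. Pofut1 (protein O-fucosyltransferase) was counted at 37.9, 49.7, 39.7 and 53.8 RPM in DMSO and at 41.6, 51.4, 45.8 and 41.5 RPM with compound E at P0, and the groups overlapped. Its log2 fold change was -0.05 (SE 0.16, 95% interval -0.40 to 0.30) at P0 and 0.14 (SE 0.18, 95% interval -0.27 to 0.55) at P6, where libraries ranged from 41.1 to 55.2 RPM. Poglut1 (protein O-glucosyltransferase) was counted at 98.6, 84.9, 73.0 and 72.7 RPM in DMSO and at 95.9, 91.3, 95.5 and 94.5 RPM with compound E at P0. The compound E libraries lay close together, below DMSO replicate 1 and above the other 3 DMSO libraries. Its log2 fold change was 0.16 (SE 0.10, 95% interval -0.07 to 0.40) at P0 and 0.02 (SE 0.17, 95% interval -0.38 to 0.43) at P6, with a range of 72.3 to 93.2 RPM over the 6 libraries. For Rfng, Pofut1 and Poglut1 a 2-fold change in either direction lay outside the 95% intervals at both ages.

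**Figure D3:**
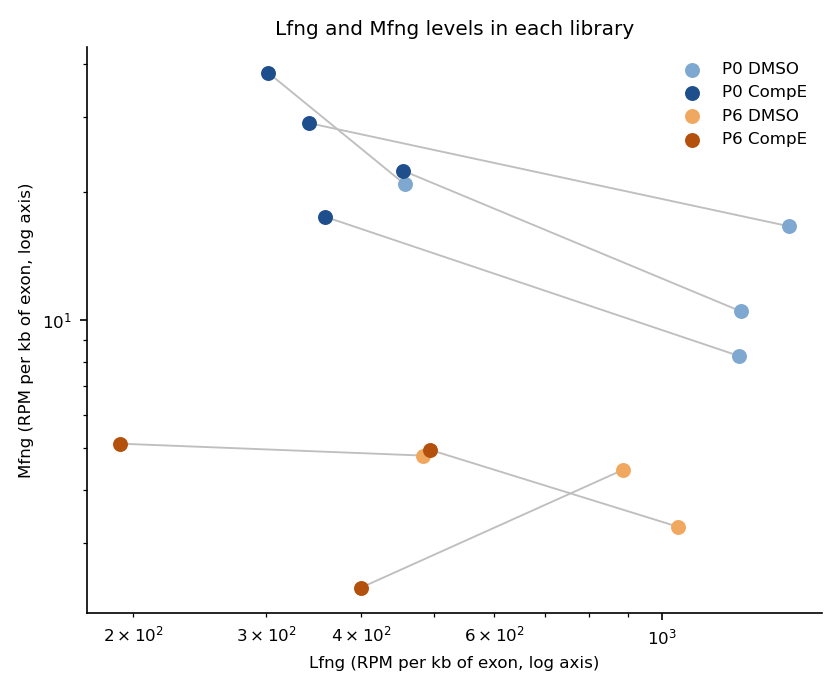
Lfng against Mfng in RPM per kb of exon in each of the 14 libraries (both axes logarithmic); colours give the groups and grey lines join the libraries of a pair. At P0 every line runs from DMSO on the right to compound E on the left and upward, and at P6 every line runs to the left at Mfng levels between 2.36 and 5.13 RPM per kb.

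The make-up of Fringe transcripts was followed as the share of each gene in the sum of all 3 Fringe genes, in RPM per kb. At P0 the share of Lfng was 92.5%, 98.6%, 98.6% and 98.2% in DMSO replicates 1 to 4 and 84.7%, 93.3%, 93.1% and 89.6% with compound E. The share was lower with compound E in each of the 4 pairs. DMSO replicate 1 fell within the range of the compound E libraries, and the other 3 DMSO libraries lay above all of them. The mean share was 97.0% ± 3.0 in DMSO and 90.1% ± 4.0 with compound E (SD, n = 4 each), a difference of -6.83 percentage points (exact two-sided permutation p = 0.0857). At P6 it was 97.5% ± 1.3 in DMSO and 94.4% ± 3.1 with compound E (SD, n = 3 each; exact two-sided permutation p = 0.2, where the smallest p is 0.1), and the groups overlapped, although the share was lower with compound E in each of the 3 pairs. These permutation tests do not use the pairs.

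The share of Mfng at P0 ranged from 0.644% to 4.23% in DMSO and from 4.55% to 10.7% with compound E, without overlap. Rfng made up 0.626% to 3.32% in DMSO and 2.20% to 4.62% with compound E at P0, and 1.29% to 6.78% over both treatments at P6. Set against each other per kb, Lfng exceeded Mfng 21.9- to 153-fold in the P0 DMSO libraries and 7.91- to 20.5-fold in the P0 compound E libraries. At P6 the ratio was 100.2- to 319.7-fold in DMSO and 37.5- to 169.8-fold with compound E. Lfng was the most abundant Fringe transcript in all 14 libraries.

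Between ages, Mfng was the one gene of the 5 that was called. In DMSO libraries it fell from 23.4 to 59.3 RPM at P0 to 9.30 to 13.7 RPM at P6, without overlap, with a fitted log2 difference of -1.66 (SE 0.33, edgeR adjusted p = 0.00339). In this comparison edgeR called 7.12% of the 17090 tested genes, and 31.1% had RPM ranges that did not overlap between the ages. When only the 7 DMSO libraries were fitted the estimate was -1.66 (edgeR adjusted p = 0.0104), just outside the limit. Leaving out P0 DMSO replicate 4, P6 DMSO replicate 1 or P6 DMSO replicate 2 also moved the adjusted p above 0.01, to 0.0108, 0.0165 and 0.0125, at log2 fold changes of -1.56, -1.50 and -1.74. Lfng differed by -0.41 (SE 0.41, 95% interval -1.29 to 0.47, edgeR adjusted p = 0.509) and Rfng by 0.48 (SE 0.21, edgeR adjusted p = 0.116). Pofut1 differed by 0.09 (SE 0.17) and Poglut1 by 0.15 (SE 0.13), and neither was called. No batch holds both ages, so age and batch cannot be told apart here.

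The genes whose pattern over the 14 libraries was most like that of each member were found by Pearson's r of log2(TMM-normalized CPM + 1), among 9986 genes whose mean reached 10 RPM. These coefficients are descriptions, since the libraries share treatments, ages and batches. For Lfng the 5 nearest genes were Slc6a14 (r = 0.93), Fam102a (0.93), Ptprk (0.92), Hey2 (0.91) and Vill (0.89). Hey2, a transcriptional repressor known as a Notch target, was called lower with compound E at P0 (log2 fold change -1.17, SE 0.19, edgeR adjusted p = 0.00835), as were Slc6a14 (-2.09) and Vill (-1.89).

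For Mfng the 4 nearest genes were Coro2a (r = 0.99), Fam78b (0.97), Vwa5b2 (0.97) and Atoh1 (0.96). Atoh1 encodes the transcription factor that specifies hair cells. Atoh1 ranged from 20.9 to 94.5 RPM in P0 DMSO, from 93.6 to 305 RPM in P0 compound E and from 5.94 to 18.9 RPM in the P6 libraries. At P0 its log2 fold change was 1.84 (SE 0.45, edgeR adjusted p = 0.0563), not called, and with the replicate block it was called at 1.94 (SE 0.13, adjusted p = 0.000122). It was called lower at P6 than at P0 in DMSO, at -2.97 (SE 0.54, edgeR adjusted p = 0.00171). The hair cell markers summed to 824 to 1513 RPM in P0 DMSO and 1266 to 1965 RPM in P0 compound E, and the sum was higher with compound E in each of the 4 pairs. The largest RPM differences were in Myo6 (a mean of 499 RPM in DMSO and 862 RPM with compound E) and Atoh1 (53.2 and 194 RPM). The members did not move together, with 6 positive and 2 negative log2 fold changes. Rbm24 was lower with compound E in all 4 pairs (-0.56, SE 0.19) and Pvalb in 3 of 4 (-0.46, SE 0.23), and neither was called. Of the 8, edgeR called 0 at P0 (1.22% of all tested genes) and 2 with the replicate block (2.2%), Atoh1 and Pou4f3, both higher. Unadjusted p was under 0.05 for 3 of the 8 (13.4% of all tested genes), and DESeq2 called Atoh1 (1.71% of those it tested). Their part in the Mfng level was not tested.

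**Figure D4:**
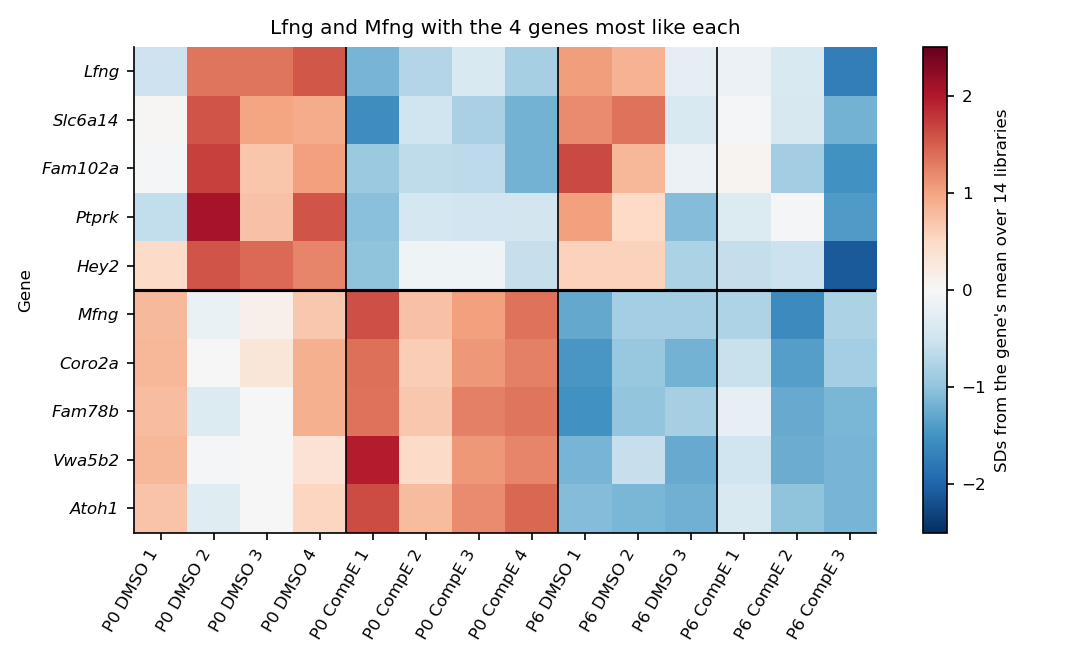
Levels of Lfng and Mfng, each with the 4 genes of highest Pearson's r, in the 14 libraries, as SDs from the mean of each gene on the log2 scale (red higher, blue lower). The upper block is high in P0 DMSO replicates 2 to 4 and above the mean in P6 DMSO replicates 1 and 2. It is below the mean in P6 DMSO replicate 3 and in P0 compound E, and near or below the mean in P6 compound E. The lower block is high in P0 compound E replicates 1, 3 and 4 and below the mean throughout P6. In that block P0 compound E replicate 2 lies near P0 DMSO replicates 1 and 4.

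Rfng was most like Rab4b (r = 0.93), Haus7 (0.92), Tmem237 (0.92), Krtcap3 (0.90) and Tubgcp2 (0.90). Pofut1 was most like Sec23ip (0.89), Trappc9 (0.89) and Ept1 (0.88), and Poglut1 was most like Tusc2 (0.89), Slc25a20 (0.86), Sh3yl1 (0.86), Spcs2 (0.85) and Mterf3 (0.84). None of these 13 genes was called at P0. Among the members themselves the coefficients ranged from -0.56 between Mfng and Pofut1 to 0.36 between Lfng and Pofut1, and that between Lfng and Mfng was -0.22. No member was among the 5 genes nearest to another.

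The other genes of the same glycosylation pathway were taken as a list of 13. It holds the O-glucosyltransferases Poglut2 and Poglut3 (listed as Kdelc1 and Kdelc2), the O-GlcNAc transferase Eogt, the xylosyltransferases Gxylt1, Gxylt2 and Xxylt1, and the galactosyltransferase B4galt1. It also holds enzymes and transporters that supply GDP-fucose to the Golgi (Gmds, Tsta3, Fuk, Fpgt, Slc35c1 and Slc35c2). At P0 0 of 13 were called by edgeR, with or without the replicate block, and 0 by DESeq2, while 4 had an unadjusted p under 0.05 (4 of 13, where all tested genes gave 13.4%). The median log2 fold change of the list was -0.03 against 0.01 for all tested genes. The largest positive values at P0 were Gxylt2 (0.69, SE 0.27) and Fuk (0.54, SE 0.16), and the largest negative values were Kdelc2 (-0.42, SE 0.14) and Xxylt1 (-0.29, SE 0.09), with edgeR adjusted p from 0.117 to 0.289. Gxylt2 and Fuk were higher with compound E, and Kdelc2 and Xxylt1 lower, in all 4 pairs.

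At P6 0 of 13 were called by edgeR or DESeq2 and 0 had an unadjusted p under 0.05, with a median log2 fold change of -0.08 against 0.00 for all tested genes. The largest positive values were Gmds (0.37, SE 0.24) and Gxylt1 (0.31, SE 0.36), and the largest negative values were Fuk (-0.51, SE 0.33) and Kdelc2 (-0.39, SE 0.24). Kdelc2 was lower with compound E in all 3 pairs at P6 and Fuk was lower in all 3, opposite to its P0 pairs. For Fuk the responses differed by -1.04 on the log2 scale (P6 minus P0, edgeR adjusted p = 0.743), which was not called. Between ages in DMSO, edgeR called 0 of 13, with an unadjusted p under 0.05 for 5 (35.5% of all tested genes), and DESeq2 called Gxylt1, lower at P6 (7.44% of the genes it tested). Kdelc2 passed the adjusted p (0.00496) at -0.87 (SE 0.19) but not the 2-fold limit, and Gxylt1 had the reverse, at -1.02 (SE 0.29, edgeR adjusted p = 0.0237).

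**Figure D5:**
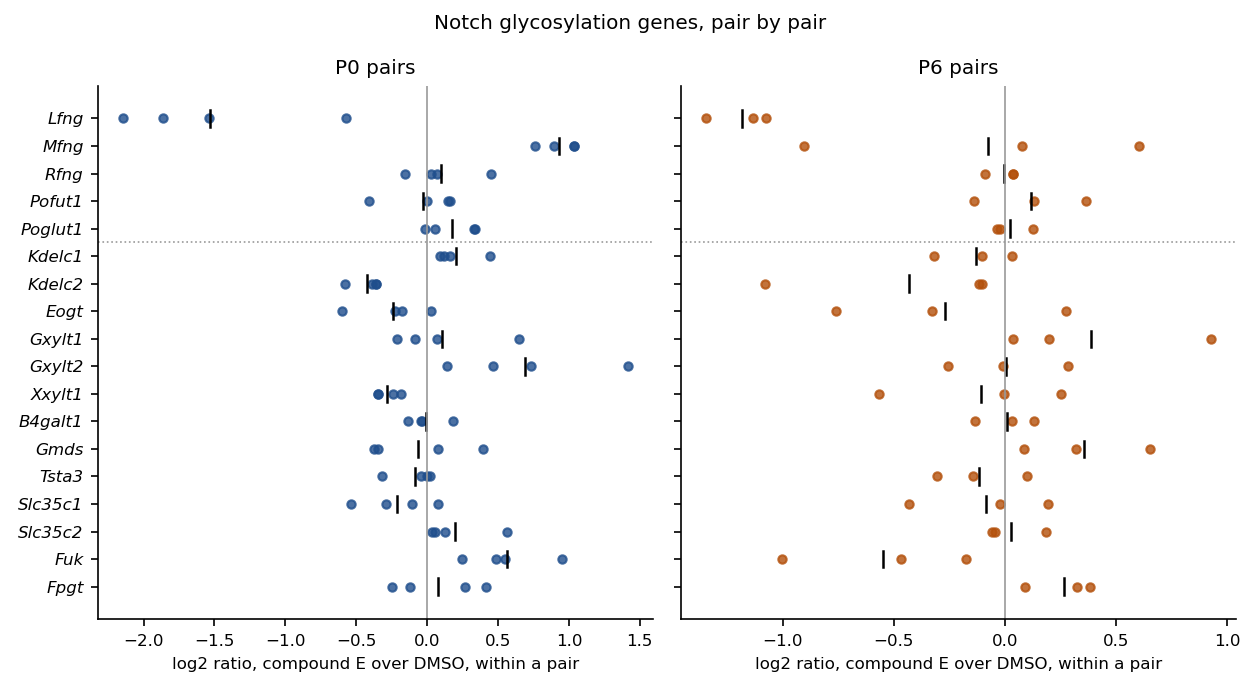
Log2 ratio of compound E over DMSO within each replicate pair (points; TMM-normalized CPM; black ticks mark the mean) for the 5 genes, above the dotted line, and the 13 other genes of the pathway. At P0 the 4 pairs of Lfng lie between -2.14 and -0.57 and those of Mfng between 0.76 and 1.04, and at P6 the 3 pairs of Lfng lie between -1.34 and -1.08.

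The receptors and ligands that carry or read these sugars were counted for context. At P0 edgeR called 0 of 9 receptors and ligands, with an unadjusted p under 0.05 for 6, and DESeq2 called 4, where the shares over all tested genes were 13.4% and 1.71%. With the replicate block 5 were called, against 2.2% of all tested genes. Jag1 (log2 fold change -1.29) and Notch3 (-1.27) were lower, and Dll1 (2.36), Dll3 (2.34) and Jag2 (1.16) higher with compound E. Jag1, a ligand that SCs express, was also lower at P6 than at P0 in DMSO (-1.74, SE 0.40, edgeR adjusted p = 0.00705), as was Jag2 (-1.81). These were the 2 of 9 that edgeR called between ages, where it called 7.12% of all tested genes. DESeq2 called 5, Notch1, Dll1, Dll3, Jag1 and Jag2, all lower at P6 (7.44% of the genes it tested). At P6 edgeR called 0 of 9, with 1 under an unadjusted p of 0.05, and DESeq2 called 0. Notch target genes were called lower with compound E at P0 in 5 of 6 cases, where edgeR called 1.22% of all tested genes. Their median log2 fold change was -2.91. Hes5 was the exception (-5.05, SE 0.97, edgeR adjusted p = 0.0187), and it was called with the replicate block (adjusted p = 0.00249). At P6 edgeR called 0 of the 6 targets, with 5 under an unadjusted p of 0.05, while DESeq2 called 3, Hes1, Hes5 and Nrarp. Over all genes tested at P6 these shares were 0.0%, 1.89% and 0.0548%.

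The SC markers, of which Jag1 is one, had a median log2 fold change of -0.39 at P0, where edgeR called 0 of 8. An unadjusted p was under 0.05 for 4 (13.4% of all tested genes), and DESeq2 called Jag1 (1.71% of those it tested). Between ages in DMSO edgeR called 2 of 8, Sox2 and Jag1, both lower at P6, against 7.12% of all tested genes. DESeq2 called 4, Sox2, Prox1, Fgfr3 and Jag1, all lower at P6 (7.44% of the genes it tested). The members differed in direction at P0, with 6 negative and 2 positive log2 fold changes. Sox2, a transcription factor of SCs, was at -0.81 (SE 0.14, edgeR adjusted p = 0.0104), while Sox10 was at 0.18 (SE 0.14), higher with compound E in all 4 pairs, and Fgfr3 at 0.13 (SE 0.16).

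Genes within 200 kb of Lfng were read as a check on whether the change was shared by the locus. GENCODE M21 annotates 13 other genes there, of which 9 were in the count table and 8 were tested. Grifin, a galectin-related gene, lies 42249 bases from Lfng. It was the only one of the 8 called at P0 (log2 fold change -2.88, SE 0.37, edgeR adjusted p = 0.00232), against 1.22% of all tested genes. Its level was low, at 3.14, 2.35, 4.64 and 3.32 RPM in DMSO and 0.54, 0.57, 0.52 and 0.25 RPM with compound E, without overlap. At P6 it ranged from 1.26 to 6.19 RPM in DMSO and from 0.25 to 2.15 RPM with compound E, lower in all 3 pairs but not called (-2.13, SE 1.00). Ttyh3, the nearest tested gene at 5033 bases, had a log2 fold change of -0.05 (SE 0.22) at P0, and the other 6 tested neighbours ranged from -0.48 (Amz1) to 0.13 (Brat1). Whether Grifin and Lfng share a regulatory element was not measured.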

How the data were processed

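RNA of EGFP+ SCs was sequenced with a full-length cDNA kit (SMART-Seq v4 PLUS) without molecular identifiers, so reads are not independent molecules. The authors trimmed reads with Trim Galore 0.6.0 and cutadapt 1.15, mapped them with STAR 2.7.0f to mm10 (versions from the submitters' processing notes) and deposited raw counts per gene for each age. The annotation and the use of strand are not given in the sources used here. From the deposited counts, RPM and RPM per kb of exon (GENCODE M21) were computed. Log2 fold changes came from edgeR 4.0.16 in R 4.3.3 (TMM, filterByExpr at a count of 10, glmQLFit, glmQLFTest), with each age fitted alone and treatment as the only term, and with all 14 libraries for the comparison of ages and of responses. Calls needed a Benjamini-Hochberg adjusted p over all tested genes of at most 0.01 and a 2-fold change. Single values were tested by exact two-sided permutation, and no p was adjusted over the 5 genes alone. DESeq2 1.42.0, a replicate or batch block, other scalings and filters, and leaving out libraries were alternatives. Replicate numbers follow the batches in the labels, except that P0 replicates 3 and 4 of both treatments share the same batch. The labels therefore do not set which of these libraries form a pair. Deviations from group means correlated within every pair (r = 0.14 to 0.46 at P0, 0.25 to 0.60 at P6), least in P0 pair 4, and libraries were paired by number. The replicates are separate libraries, and p-values measure the spread between them. The fits were tested on simulated data. The members, lists and tests were chosen with earlier results of these data known. Named were the 5 members, the 2 largest positive and negative changes of the pathway list at each age, the genes most like each member (5 by rule, of which some for Mfng and Pofut1 are not reported here), the neighbours of Lfng, and defining genes of the other lists. Promoter windows are from RefSeq on GRCm38.p6. Protein sequences were not used here.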

Additional observations from a re-analysis of the deposited data

Results flagged for a closer look

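The share of Lfng among Fringe transcripts in P0 DMSO replicate 1 was 92.5%, apart from the 98.2% to 98.6% of the other 3 libraries of its group by Dixon's test at the 95% level. Of 12 groups of 4 libraries tested in this way, it was the only one, and chance alone gives about 1 in 20.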

How the results depend on the processing

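Lfng kept its direction under every alternative run at P0 and at P6, and Mfng kept its direction at P0 and between ages. At P0, where edgeR called 195 genes, 350 were called with the replicate block, 334 with the batch block, 441 by DESeq2, 617 when an adjusted p of 0.05 alone was required and 117 when all 14 libraries were fitted together. Leaving out 1 library gave 80 to 225 calls. Leaving out both libraries of pair 2, 3 or 4, alternatives chosen after seeing the data, gave 69, 44 and 1. Lfng was called at P0 with the replicate block (-1.54), the batch block (-1.54), DESeq2 (-1.67), an adjusted p of 0.05 (-1.67) and without both libraries of pair 1 (-1.83), and it ranged from -1.94 to -1.51 when 1 library was left out, called only without DMSO replicate 1. Its RPM difference of -1878 became -1915 with TMM and -2140 without the 50 most abundant genes, both at an exact permutation p of 0.0571. The cause of these changes was not tested. The replicate block changed no other call among the 5 genes.

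At P6 DESeq2 called 13 genes. For the difference between ages in response, 16 were called with the replicate block, 34 by DESeq2, 1 with no filter, 2 at an adjusted p of 0.05, and 0 to 2 when 1 library was left out, against 0. Between ages in DMSO, where 1216 genes were called, 727 were called from the 7 DMSO libraries alone, 1994 by DESeq2, 3840 at an adjusted p of 0.05, and 804 to 1260 when 1 library was left out. Mfng was not called from the 7 DMSO libraries alone (-1.66) and ranged from -1.83 to -1.45 when 1 library was left out. The log2 fold changes near 0 changed sign. At P0 Rfng ranged from -0.084 to 0.30 and Pofut1 from -0.15 to 0.045 when 1 library was left out, and were -0.019 without pair 3 and 0.079 without pair 4, respectively. At P6 Mfng ranged from -0.17 to 0.25, Rfng from -0.027 to 0.023 and Poglut1 from -0.11 to 0.11. There Mfng was 0.050 after downsampling and 0.32 without pair 2, Rfng was -0.0064 without pair 1 and -0.019 without pair 2, and Poglut1 was -0.027 without pair 3. The Rfng difference in response ranged from -0.29 to 0.10, and Pofut1 between ages from -0.017 to 0.18. The Pofut1 RPM difference at P0 was -0.20 and became 0.025 without the 50 most abundant genes. The protein comparison was not run. The spread between 3 or 4 libraries limits these estimates, and the part of sequencing depth in it was not tested.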
